A study of Mus musculus with 6 samples.

Results

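Nr4a and Egr proteins are transcription factors of the immediate early class, whose genes are switched on within a short time of a T cell receptor signal without the need for new protein. The genes described here are Nr4a1, Nr4a2, Nr4a3, Egr1, Egr2 and Egr3 with 4 early receptor-induced genes, Cd69, Myc, Ier2 and Ier3. They were found by matching Ensembl gene identifiers to symbols, and each of the 10 matched 1 row among the 36811 genes of the table. The RNA came from splenic regulatory T cells (Treg) of C57BL/6 mice 18 to 21 weeks old, sequenced after sorting on EGFP. Treg are the CD4 T cells that restrain immune responses under the transcription factor Foxp3. The group labelled cKO has the genotype Bach2fl/fl Foxp3EGFP-Cre-ERT2 and holds 3 libraries. The group labelled WT has the genotype Bach2+/+ Foxp3EGFP-Cre-ERT2 and also holds 3 libraries. Both therefore carry the EGFP and Cre-ERT2 insertion at Foxp3, and differ by the floxed alleles of Bach2, a transcriptional repressor. The design text of the series instead speaks of Treg sorted as Bach2high and Bach2low from reporter mice, and the groups here follow the labels of the samples. Cre-ERT2 is a Cre recombinase that acts after a tamoxifen-type ligand is given, and whether and how it was given is not stated in the sources used here. The labels do not say whether the libraries of a group came from separate mice, so each p-value covers no more than library-to-library spread, which may be technical.

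In resting cells these genes are held low, and receptor signals reach them through MAP kinases and calcium, acting on serum response factor, CREB and NFAT. Nr4a factors bind DNA as orphan nuclear receptors and are known in the thymus and in Treg for sustaining Foxp3. Egr factors bind GC-rich sites through zinc fingers, and Egr2 and Egr3 are known in T cells for restraining activation and inducing negative regulators. In Treg, which receive continual signals from self antigens, Nr4a1 and Egr2 serve as common readouts of receptor signal strength.

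The promoters are shown first because sites for the factors that receive these signals can be searched in them. RefSeq promoter sequences (GRCm38.p6, a later build than that of the expression values) were at hand for 5 of the 10 genes, Egr2, Nr4a1, Nr4a2, Nr4a3 and Ier3, in 9 windows. Each window below is the 250 bases upstream of an annotated start, 5′ to 3′ on the gene's strand. Egr2 is shown because it was the member with the clearest separation of the groups, and the Nr4a genes because they are its companions in the immediate early class. Capitals mark matches to the CArG box of serum response factor, to the Egr site GCGNGGGCG and to the CREB half-site TGACG, on either strand. The Egr2 windows lie at chr10:67537316-67537565 and chr10:67537619-67537868 on the plus strand, Nr4a1 at chr15:101266596-101266845 on the plus strand, Nr4a2 at chr2:57124004-57124253 on the minus strand and Nr4a3 at chr4:48045055-48045304 on the plus strand.
Egr2, window 2: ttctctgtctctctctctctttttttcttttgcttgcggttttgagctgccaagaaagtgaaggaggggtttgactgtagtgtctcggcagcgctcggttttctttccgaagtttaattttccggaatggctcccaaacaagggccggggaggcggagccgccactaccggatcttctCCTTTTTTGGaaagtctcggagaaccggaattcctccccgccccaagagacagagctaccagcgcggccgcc
Egr2, window 3: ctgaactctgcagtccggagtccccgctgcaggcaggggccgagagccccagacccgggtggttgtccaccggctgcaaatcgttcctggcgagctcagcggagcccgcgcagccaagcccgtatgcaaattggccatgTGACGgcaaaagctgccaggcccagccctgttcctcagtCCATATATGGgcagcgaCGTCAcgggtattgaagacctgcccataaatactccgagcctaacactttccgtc
Nr4a1: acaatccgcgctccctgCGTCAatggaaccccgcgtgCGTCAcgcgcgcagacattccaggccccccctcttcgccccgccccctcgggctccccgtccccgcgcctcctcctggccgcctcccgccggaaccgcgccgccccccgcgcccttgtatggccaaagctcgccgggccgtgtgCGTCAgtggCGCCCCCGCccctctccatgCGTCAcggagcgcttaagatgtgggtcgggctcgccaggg
Nr4a2: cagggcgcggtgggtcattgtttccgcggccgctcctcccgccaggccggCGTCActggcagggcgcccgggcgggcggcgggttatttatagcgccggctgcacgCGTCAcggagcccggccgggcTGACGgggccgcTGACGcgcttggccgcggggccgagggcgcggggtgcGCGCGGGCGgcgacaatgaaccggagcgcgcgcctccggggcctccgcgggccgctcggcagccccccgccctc
Nr4a3: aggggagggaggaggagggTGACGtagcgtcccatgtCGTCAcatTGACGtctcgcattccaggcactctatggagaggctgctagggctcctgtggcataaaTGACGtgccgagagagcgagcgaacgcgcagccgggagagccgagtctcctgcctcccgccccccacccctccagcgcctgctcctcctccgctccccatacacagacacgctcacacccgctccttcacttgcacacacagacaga

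A CArG box stood 72 to 63 bases before the start in windows 2 and 3 of the 5 Egr2 windows, against 1.47% of all 32851 mouse promoter windows of this length that hold one. Egr2 windows 4 and 5 overlap window 3 and share its box, and window 1 had no match. None of the 3 Nr4a windows matched the CArG box. Each Nr4a window held 4 copies of the half-site TGACG, and Egr2 window 3 held 2, whereas 17.8% of all windows hold at least 1. Nr4a1 and Nr4a2 each held 1 Egr site (4.7% of all windows), at bases -60 to -52 and -74 to -66 counted from the start. Apart from N this site is all G and C, and the 2 windows are 74.4% and 80% G and C. The share over all windows is not matched for that content. The full CREB site TGACGTCA (1.55% of all windows), the Nr4a monomer site AAAGGTCA (1.34%) and the core TGANTCA shared by AP-1 and Bach factors (6.75%) were not matched in the 9 windows, which says only that these letters are not in them. These matches are descriptions of sequence and not evidence of binding. In the 3′ UTR of the longest coding transcript (GENCODE annotation of GRCm38), 9 of the 10 genes had more copies of the AU-rich pentamer ATTTA per kilobase than the median of 1.31 over 9713 tested genes. AU-rich elements are known for marking messages for rapid decay. Ier3 had 8.12 copies per kilobase, a density reached by 1.28% of tested genes. Nr4a1 had 5.49 (reached by 4.65%) and Myc 4.49 (reached by 7.94%), while Ier2 had none. The Myc figure rests on 2 copies in 445 bases. Egr1 (1.64, reached by 42.5%) and Nr4a3 (1.61, reached by 43.1%) were close to the median. The longer element TATTTAT was in 4 of the 10 genes, Nr4a2, Nr4a3, Cd69 and Ier3, against 29.6% of tested genes.

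Levels are in FPKM, which divides fragments by transcript length and library size and so allows a comparison between genes. The scale from fragments to FPKM, estimated from the steps between low values, lay between 3030000 and 5000000 fragments in the 6 libraries and need not be the number sequenced. Each fragment number below takes all fragments of a gene to lie on its longest coding transcript, which was not tested. Fragments on shorter transcripts would make the number smaller. Bach2 itself ranged over 6.44 to 9.19 FPKM with the label cKO, against 3.29 to 8.25 FPKM with the label WT. Which exons the loxP sites flank was not stated and the value is 1 per gene, so each direction below rests on the labels alone. The 8 Treg and CD4 T cell markers examined averaged at least 1 FPKM, with Foxp3 itself between 5.16 and 9.44 FPKM in the 6 libraries. The groups did not overlap in the summed erythroid and the summed CD8 and NK cell markers. The 9 myeloid markers summed to 206 to 884 FPKM in cKO and 174 to 299 FPKM in WT, highest in cKO 2, with Ly6g listed at 0 in cKO 3 and in each WT library. The sums overlapped, but 2 of the 9, Adgre1 and Cd14, were higher in cKO without overlap, and 0 were lower. The 6 myeloid markers that averaged at least 1 FPKM all had a log2 difference of cKO minus WT above 0. Their median was 0.61, and none had an adjusted p under 0.05 (limma). The 5 erythroid markers summed to 129 to 278 FPKM in cKO and 33.7 to 112 FPKM in WT. The 6 B cell markers summed to 119 to 159 FPKM in cKO and 106 to 152 FPKM in WT. The 6 CD8 and NK cell markers summed to 105 to 131 FPKM in cKO and 82.8 to 104 FPKM in WT. Cd8a was at no more than 0.53 FPKM and Cd8b1 between 18.8 and 22.4 FPKM in the 6 libraries. Nkg7 made up most of each sum. It was higher in cKO without overlap, at 83.3 to 107 FPKM against 59.6 to 79.2 FPKM in WT. Klrd1 and Klrb1c went the other way and were lower in cKO without overlap. Klrd1 was listed at 0 in cKO 1 and reached at most 0.546 FPKM in cKO, against 1.35 to 3.46 FPKM in WT. Without cKO replicate 2, the log2 difference of Egr2 was -0.42 and that of Myc -0.28. Leaving out that library does not remove the myeloid markers from the others. The part of all these markers in the results below was not tested. In bulk samples, fewer cells of a type and less RNA per cell cannot be told apart.

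The 10 genes spanned a wide range of levels. They lie apart in the genome, with Nr4a1 and Myc both on chromosome 15 and the other 8 each on a chromosome of its own. Ier2, Myc and Cd69 were the most abundant, with means over the 6 libraries of 87.5, 85.4 and 77.6 FPKM and ranges that overlapped. Nr4a1 (40.1 FPKM) and Egr2 (36.7 FPKM) formed the next pair, also with overlapping ranges. Egr1 (9.47 FPKM), Nr4a2 (8.29 FPKM) and Nr4a3 (1.78 FPKM) followed with overlaps between neighbours, and Egr3 (0.692 FPKM) and Ier3 (0.401 FPKM) were near the limit of detection. Between libraries Nr4a1, Cd69, Ier2, Egr1 and Myc varied least, with coefficients of variation from 8.06% to 13.7%. Egr2 stood at 16.4% and Nr4a2 at 108%.

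**Figure D1:**
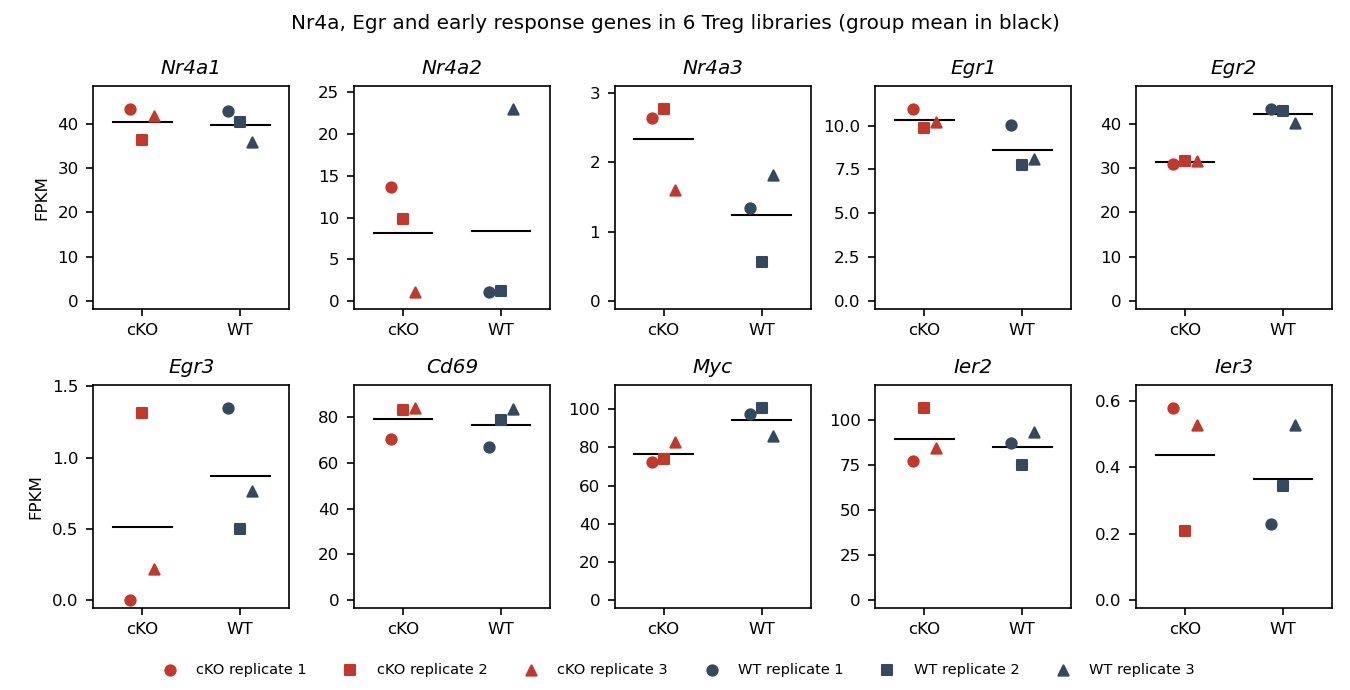
FPKM of the 10 genes in each library, with cKO in red on the left, WT in dark blue on the right, a marker shape for each replicate number and the group mean as a black line. The groups do not overlap for Egr2 and Myc, and Nr4a2 is split between values near 1 FPKM and values of 9.86 FPKM and above.

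The comparison of cKO with WT was made across 11979 genes that averaged 1 FPKM or more, which kept 8 of the 10 genes and left out Egr3 and Ier3. None of the 8 passed an adjusted p of 0.05 (limma with Benjamini-Hochberg adjustment over all genes tested), where 0.025% of all genes tested did, 0.00835% higher and 0.0167% lower. At an unadjusted p under 0.05 there was 1 of the 8, Egr2, which was lower, against 5.37% of all genes at that level, 3.59% higher and 1.78% lower. Those shares depend on scaling, with 430 genes higher and 213 lower as reported, 770 higher and 96 lower with equal sums, 341 higher and 277 lower by quantiles, and 363 higher and 278 lower by trimmed means. The groups did not overlap in 2 of the 8, Egr2 and Myc, both lower in cKO, while 10.7% of all genes tested did not overlap, 6.96% higher and 3.75% lower. Of the 8, 6 had a log2 difference above 0, against 55% of all genes, and their median was 0.06 against 0.03 for all genes tested.

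Egr2, a zinc finger factor known in T cells for limiting activation, stood at 30.8, 31.6 and 31.5 FPKM in cKO 1, 2 and 3, against 43.3, 42.9 and 40.1 FPKM in WT 1, 2 and 3. Each cKO library was below each WT library, and the cKO values lay within 1 FPKM of each other. The group means were 31.3 ± 0.424 FPKM in cKO and 42.1 ± 1.77 FPKM in WT (SD, n = 3 each), a ratio of 0.744. On the log2(FPKM + 1) scale Egr2 differed by -0.41, standard error 0.118, with -0.70 and -0.13 as 95% limits (limma, unadjusted p = 0.0106, Benjamini-Hochberg adjusted p = 0.874). The difference did not pass over all genes. By the estimated scale, and if all lay on the longest of its coding transcripts, 329 to 579 fragments were behind each Egr2 value. With libraries scaled to equal FPKM sums, where the median of all genes was 0.18 in place of 0.03, the Egr2 difference was -0.26 (limma, unadjusted p = 0.155).

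Egr1, the family member induced fastest in many cell types, had a difference of the other sign. It stood at 10.9, 9.88 and 10.2 FPKM in cKO 1, 2 and 3, against 10.02, 7.73 and 8.07 FPKM in WT 1, 2 and 3. The cKO values were the higher ones save that cKO 2 lay just under WT 1. The log2 difference was 0.25, its 95% interval running from -0.16 to 0.65 (limma, adjusted p = 0.925). Egr3, a close relative of Egr2 that acts with it in T cells, was listed at 0 in cKO 1 and stood at 1.31 and 0.219 FPKM in cKO 2 and 3. In WT 1, 2 and 3 Egr3 stood at 1.35, 0.501 and 0.769 FPKM. The Egr3 groups overlapped, and no more than 26 fragments lay behind any of its values by the estimated scale. With no filter on low values, it differed by -0.38 on the log2 scale, standard error 0.354 (limma, unadjusted p = 0.322).

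As FPKM is scaled for length, the 3 Egr genes can be added. Their sum was 41.8, 42.8 and 41.9 FPKM in cKO 1, 2 and 3, against 54.7, 51.1 and 48.9 FPKM in WT 1, 2 and 3, without overlap. Egr2 made up 73.8%, 73.9% and 75.1% of the sum in cKO 1, 2 and 3, against 79.2%, 83.9% and 81.9% in WT 1, 2 and 3. The share was lower in every cKO library, with a mean difference of -7.42 percentage points (two-sided exact permutation test, p = 0.1, the smallest that 3 libraries against 3 allow). Leaving out 1 library moved that difference to between -8.66 and -6.30 points. The ratio of Egr2 to Egr1 was 3.03 ± 0.197 in cKO and 4.95 ± 0.617 in WT (SD, n = 3 each; two-sided exact permutation test, p = 0.1). These ratios within a library do not depend on how libraries are scaled to each other, and were chosen after the values were seen. As Egr2 made up most of the sum and enters the share and the ratio, all of them largely repeat the Egr2 difference. The share and the ratio also take in the opposite sign of Egr1, and none is separate evidence for Egr2.

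**Figure D2:**
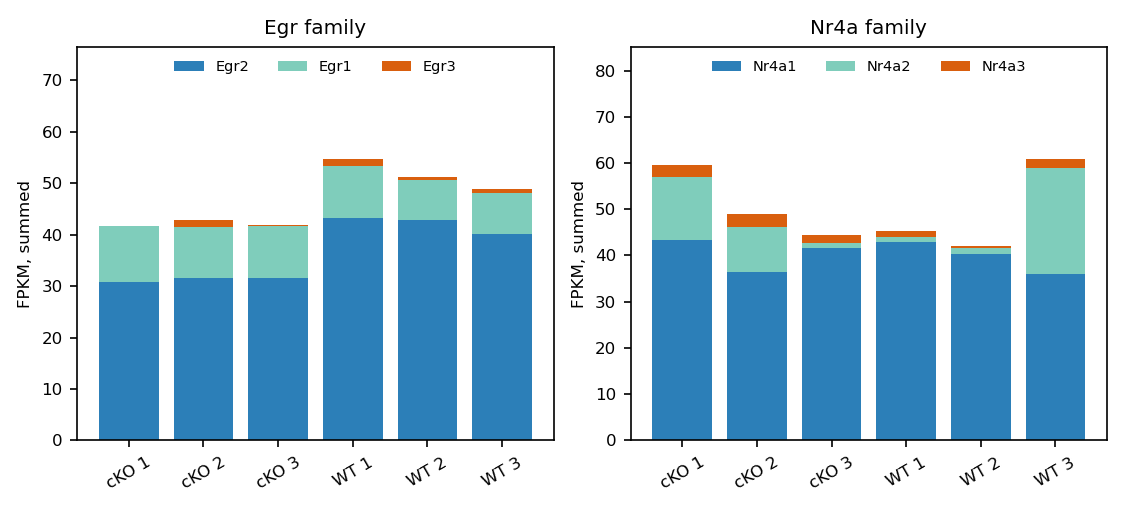
Stacked bars of FPKM for the Egr family (left) and the Nr4a family (right) in cKO 1, 2 and 3 and WT 1, 2 and 3. The Egr sum is 41.8 to 42.8 FPKM in cKO and 48.9 to 54.7 FPKM in WT, and the Nr4a sum is set apart in cKO 1 and WT 3 by Nr4a2.

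Nr4a1 (Nur77), the Nr4a gene most used as a reporter of receptor signals, had nearly equal group means. It stood at 43.3, 36.4 and 41.7 FPKM in cKO 1, 2 and 3, against 43.0, 40.4 and 36.0 FPKM in WT 1, 2 and 3. The groups covered nearly the same range. It differed by 0.02 on the log2 scale, standard error 0.139, with -0.31 and 0.36 as 95% limits (limma, adjusted p = 0.996), and its sign turned under 4 of 15 other settings. Between 313 and 495 fragments lay behind each value by the estimated scale. Set against Nr4a1 in the same library, Egr2 was at a ratio of 0.712, 0.869 and 0.756 in cKO 1, 2 and 3, against 1.01, 1.06 and 1.11 in WT 1, 2 and 3. Egr2 was therefore the lower of these 2 genes in each cKO library and the higher in each WT library (two-sided exact permutation test on the ratio, p = 0.1, the smallest this design allows). As Nr4a1 had nearly equal group means, the ratio repeats the Egr2 difference and is not separate evidence for it.

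Nr4a2 (Nurr1), known for its role in dopamine neurons as well as in T cells, varied widely within both groups. Its values were 13.6, 9.86 and 1.06 FPKM in cKO 1, 2 and 3, against 1.02, 1.17 and 23.0 FPKM in WT 1, 2 and 3. Thus 3 libraries, with both groups among them, lay near 1 FPKM, and WT 3 was 22.5-fold above WT 1. The log2 difference of 0.55 had 95% limits of -2.21 and 3.30 and a standard error of 1.15 (limma, adjusted p = 0.977). It was 0.0032 on leaving out cKO replicate 1, 0.22 on leaving out cKO 2 and 1.42 on leaving out cKO 3. Leaving out WT replicate 1 gave -0.066, WT 2 gave -0.016 and WT 3 gave 1.72. The annotation lists 6 transcripts for Nr4a2, from 182 to 3568 bases, and the table gives 1 value for the gene. How fragments were divided among transcripts, and whether that differs between libraries, was not tested. If all fragments lay on the longest coding transcript, 13 to 324 would be behind each value.

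Nr4a3 (NOR-1), the last of the 3 orphan receptors, had cKO values of 2.64, 2.77 and 1.60 FPKM and WT values of 1.33, 0.558 and 1.81 FPKM in libraries 1, 2 and 3. WT 3 exceeded the lowest cKO value, and the other WT libraries did not. Mean levels were 2.33 ± 0.641 FPKM in cKO and 1.24 ± 0.634 FPKM in WT (SD, n = 3 each). By the estimated scale, 10 to 79 fragments lay behind each Nr4a3 value, fewest in WT 2. The log2 difference was 0.60, its 95% interval running from -0.22 to 1.41 (limma, adjusted p = 0.925). It was 0.36 without WT replicate 2, 0.96 with a pseudocount of 0.1 and 0.24 with a pseudocount of 5. Nr4a3 made up 4.42%, 5.64% and 3.60% of the Nr4a sum in cKO 1, 2 and 3, against 2.94%, 1.32% and 2.98% in WT 1, 2 and 3. These shares depend on the scattered Nr4a2 values, with Nr4a2 at 37.9% of the sum in WT 3 and 2.39% in cKO 3. WT 3 thus had the lower share though its Nr4a3 value was above that of cKO 3. The summed Nr4a level was 51.0 ± 7.79 FPKM in cKO and 49.4 ± 9.98 FPKM in WT (SD, n = 3 each; two-sided exact permutation test, p = 0.8).

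**Figure D3:**
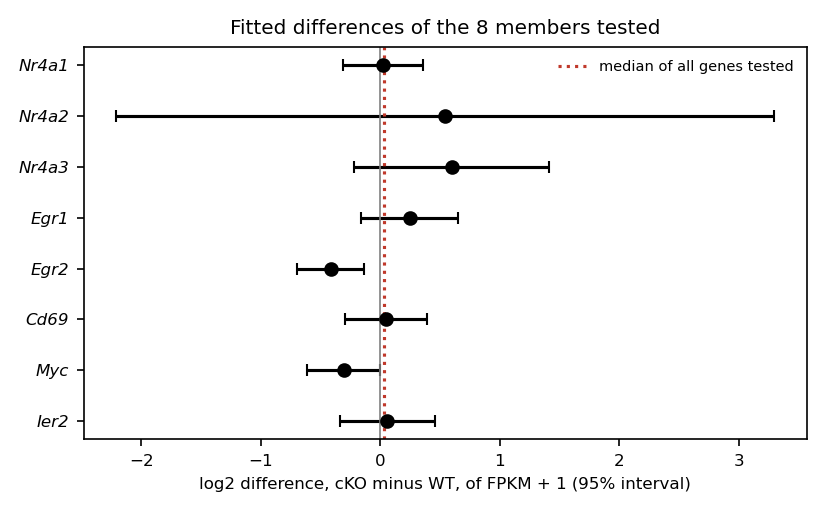
Log2 difference of cKO minus WT on the log2(FPKM + 1) scale for the 8 genes tested, with 95% intervals from limma, a grey line at 0 and a dotted red line at the median of all genes tested, 0.03. The interval of Egr2 lies below 0, from -0.70 to -0.13, that of Myc reaches 0.0014, and that of Nr4a2 spans both directions widely.

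Myc, the growth factor-induced regulator of ribosome production and metabolism, stood at 72.1, 73.9 and 82.8 FPKM in cKO 1, 2 and 3, against 97.3, 100.4 and 85.7 FPKM in WT 1, 2 and 3. Each cKO library was below each WT library, by a small margin between cKO 3 and WT 3. The means were 76.3 ± 5.73 FPKM in cKO and 94.5 ± 7.77 FPKM in WT (SD, n = 3 each), a ratio of 0.807. Myc differed by -0.30 on the log2 scale, standard error 0.128, with -0.61 and 0.0014 as 95% limits (limma, unadjusted p = 0.0508, adjusted p = 0.925). It did not pass, and it was -0.15 with equal sums.

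Of 20 known Myc targets of ribosome production and growth, a list chosen with earlier results of these data known, 15 had a log2 difference below 0, against 45% of all genes tested, and the median was -0.12. With equal sums 9 of the 20 were below 0, and their median was 0.03 where that of all genes was 0.18. None passed over all genes tested, and at an unadjusted p under 0.05 there was 1 lower and 1 higher (limma), against 5.37% of all genes in either direction. The groups did not overlap in 5 lower genes, Npm1, Nop56, Nop58, Nolc1 and Dkc1, and in 2 higher ones, Eif4a1 and Ran, where 3.75% of all genes tested were lower and 6.96% higher without overlap. Ncl, Fbl, Bop1 and Rrp12, which also act in ribosome production, overlapped between the groups. Nop56, a core protein of box C/D ribonucleoproteins, stood at 204, 200.03 and 205 FPKM in cKO 1, 2 and 3, against 312, 238 and 312 FPKM in WT 1, 2 and 3. Its log2 difference was -0.49 (limma, unadjusted p = 0.0134, adjusted p = 0.874). Dkc1, the pseudouridine synthase of box H/ACA ribonucleoproteins, stood at 198, 129.9 and 222 FPKM in cKO, against 249, 273 and 235 FPKM in WT, lowest in cKO 2, and its log2 difference of -0.49 was -0.26 without cKO replicate 2. Eif4a1, an RNA helicase of translation initiation, went the other way, at 149.99, 152 and 154 FPKM in cKO against 121, 124 and 129 FPKM in WT (log2 difference 0.28, limma, adjusted p = 0.915). Among Myc partners and antagonists, 5 of 7 tested were above 0, against 55% of all genes tested. Mxd1, a repressor that competes with Myc for its partner Max, stood at 11.96, 13.6 and 9.32 FPKM in cKO, against 8.06, 7.84 and 8.53 FPKM in WT, without overlap (limma, unadjusted p = 0.0473, adjusted p = 0.921). Mycn and Mycl, the paralogs of Myc, were listed at 0 in 5 and 3 of the 6 libraries.

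**Figure D4:**
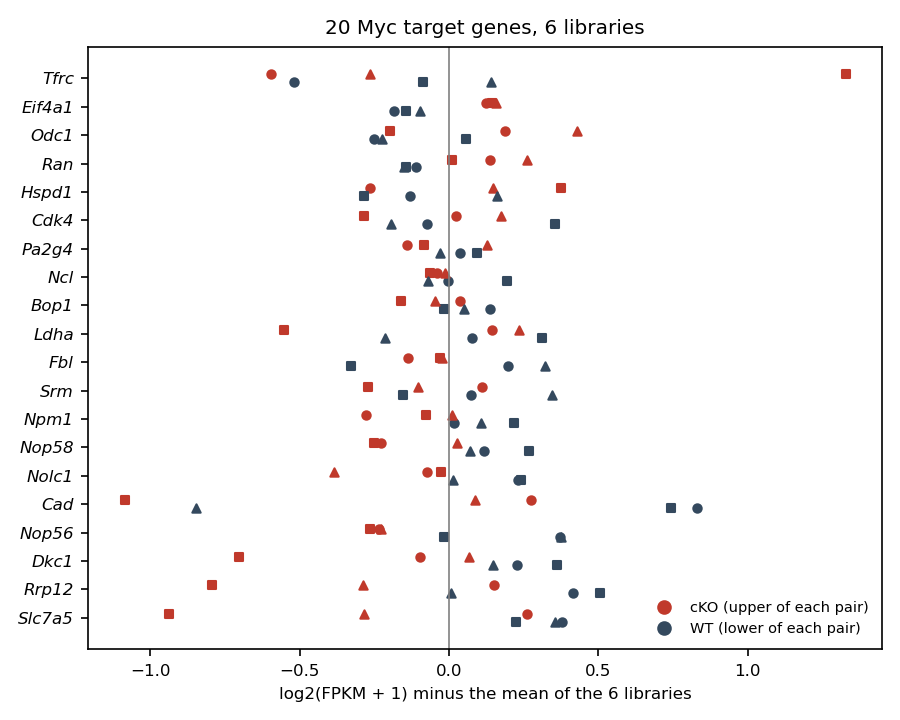
Log2(FPKM + 1) of 20 Myc target genes, each centred on its mean over the 6 libraries, with cKO in red above WT in dark blue and a marker shape for each replicate number. Genes are ordered by their log2 difference, and 15 of the 20 lie below 0 for cKO minus WT.

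Cd69, the early activation antigen that holds lymphocytes in tissue by pulling the egress receptor S1pr1 from the surface, did not separate the groups. It stood at 70.2, 83.0 and 83.7 FPKM in cKO 1, 2 and 3, against 66.8, 78.4 and 83.5 FPKM in WT 1, 2 and 3. The 2 groups covered almost the same range. The log2 difference was 0.05, its 95% interval running from -0.29 to 0.40 (limma, adjusted p = 0.980). S1pr1 stood at 71.1, 58.4 and 67.7 FPKM in cKO, against 77.1, 66.02 and 67.7 FPKM in WT. Among 6 genes of egress and tissue residence, the groups did not overlap in S1pr4 and Cxcr6, which were higher. Of all genes tested, 6.96% were higher without overlap. S1pr1 and Itgae of that list overlapped between the groups. S1pr4 had a log2 difference of 0.18 (limma, unadjusted p = 0.160). Cxcr6, a chemokine receptor of tissue-resident lymphocytes, stood at 46.5, 43.9 and 59.6 FPKM in cKO 1, 2 and 3, against 26.6, 21.7 and 22.4 FPKM in WT 1, 2 and 3 (log2 difference 1.05, limma, adjusted p = 0.589). Neither passed over all genes tested.

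Ier2, a small nuclear immediate early protein, was the most abundant member at 77.5, 106.7 and 84.7 FPKM in cKO 1, 2 and 3, against 87.2, 75.3 and 93.5 FPKM in WT 1, 2 and 3. The groups overlapped, with a log2 difference of 0.06 and a 95% interval from -0.33 to 0.46 (limma, adjusted p = 0.979). Ier3, an early gene linked to cell survival, was the least abundant. Its values were whole multiples of 1 step within a tolerance of 0.02, and correspond to 2, 1 and 2 fragments in cKO 1, 2 and 3 and to 1, 1 and 2 in WT 1, 2 and 3. The matching values of 0.577, 0.207 and 0.525 FPKM in cKO, against 0.230, 0.342 and 0.525 FPKM in WT, could therefore show no difference at this depth.

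Among 38 other early receptor-induced genes and their regulators, 31 were tested. Of these, 25 had a log2 difference above 0, against 55% of all genes tested. Their median was 0.15, against 0.03 for all genes tested. After quantile normalization 13 of the 31 were below 0, and with equal sums 1 of those tested was. None passed over all genes tested, and 2 of the 31 had an unadjusted p under 0.05 (limma), where 5.37% of all genes did. The groups did not overlap in Dusp1, Dusp10, Rgs1 and Tnfrsf9, which were higher, and in Jun, which was lower, against 10.7% of all genes without overlap. Tnfrsf9 (4-1BB), a costimulatory receptor of activated Treg, stood at 294, 302 and 346 FPKM in cKO 1, 2 and 3, against 255, 245 and 211 FPKM in WT 1, 2 and 3 (log2 difference 0.40, limma, adjusted p = 0.915). Rgs1, a brake on chemokine receptor signals, stood at 321, 342 and 385 FPKM in cKO, against 291, 269 and 295 FPKM in WT (log2 difference 0.29, limma, adjusted p = 0.925). Dusp1, a phosphatase that shuts down MAP kinases, stood at 63.9, 55.8 and 57.4 FPKM in cKO, against 36.5, 49.0 and 52.5 FPKM in WT (log2 difference 0.37, limma, adjusted p = 0.925), and its difference was 0.21 without WT replicate 1. Jun, an AP-1 subunit, stood at 43.9, 42.1 and 33.6 FPKM in cKO against 60.4, 51.9 and 49.7 FPKM in WT (log2 difference -0.43, limma, adjusted p = 0.915). Fos, its immediate early partner, overlapped, at 12.9, 13.0 and 9.86 FPKM in cKO, against 18.4, 10.4 and 8.90 FPKM in WT. Of 10 heat shock and dissociation stress genes, 8 were tested and 3 were above 0, against 55% of all genes tested. Their median was -0.11, none passed, and none had an unadjusted p under 0.05 (limma). Among them Hspb1, a small heat shock protein, was listed at 0 in cKO 1 and stood at 0.525 and 0.897 FPKM in cKO 2 and 3, against 2.35, 1.75 and 0.897 FPKM in WT 1, 2 and 3. It differed by -0.87 on the log2 scale (limma, unadjusted p = 0.0708). The inducible Hsp70 genes Hspa1a and Hspa1b are near-identical copies whose fragments may be divided uncertainly, and both were too low to test. Hspa1a reached at most 0.659 FPKM in cKO and at least 0.825 FPKM in WT, and Hspa1b at most 0.0919 FPKM in cKO and at least 0.102 FPKM in WT. The part of these stress genes in the lower Egr2, Myc and Jun values was not tested.

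The next list held corepressors and reported targets of Egr and Nr4a factors. Of 16 tested, 12 were above 0, against 55% of all genes, with a median of 0.09, and none passed (limma), with 2 at an unadjusted p under 0.05, where 5.37% of all genes were. Rnf128 (GRAIL), a ubiquitin ligase of T cell anergy reported as a target of Egr2 and Egr3, stood at 6.19, 7.70 and 4.89 FPKM in cKO 1, 2 and 3, against 15.8, 12.3 and 7.90 FPKM in WT 1, 2 and 3. Its groups did not overlap, narrowly so between cKO 2 and WT 3, and the log2 difference was -0.81 (limma, unadjusted p = 0.0267, adjusted p = 0.915). It ranged from -1.06 to -0.57 over the 15 other settings. Tox2, an HMG-box factor linked to Nr4a in chronically stimulated T cells, stood at 17.4, 22.1 and 21.97 FPKM in cKO, against 15.05, 14.5 and 11.4 FPKM in WT, a log2 difference of 0.56 (limma, unadjusted p = 0.0179, adjusted p = 0.915). Nab2, the corepressor that Egr factors themselves induce, stood at 21.997, 15.8 and 16.7 FPKM in cKO, against 20.5, 18.4 and 15.3 FPKM in WT. Cblb, a ubiquitin ligase reported as an Egr target, stood at 15.5, 11.1 and 20.8 FPKM in cKO, against 13.7, 14.7 and 16.4 FPKM in WT. Both overlapped between the groups.

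The mean profile of the 6 Nr4a and Egr genes over the 6 libraries followed Nr4a2. Centred on its mean, Nr4a2 ranged from -1.50 to 2.07 on the log2 scale, and the other 5 from -0.78 to 0.54. Among 8447 genes averaging 5 FPKM or more, the closest by Pearson r were D730003I15Rik (0.993), Traf3 (0.987), Mapre3 (0.968), Wbp11 (0.960) and Tgds (0.957). These figures describe 6 libraries and carry no test, and Spearman rho lay between 0.886 and 1. Wbp11, at 26.3, 44.0 and 15.7 FPKM in cKO 1, 2 and 3, against 16.8, 12.2 and 46.0 FPKM in WT 1, 2 and 3, kept the same order of libraries as the mean profile.

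**Figure D5:**
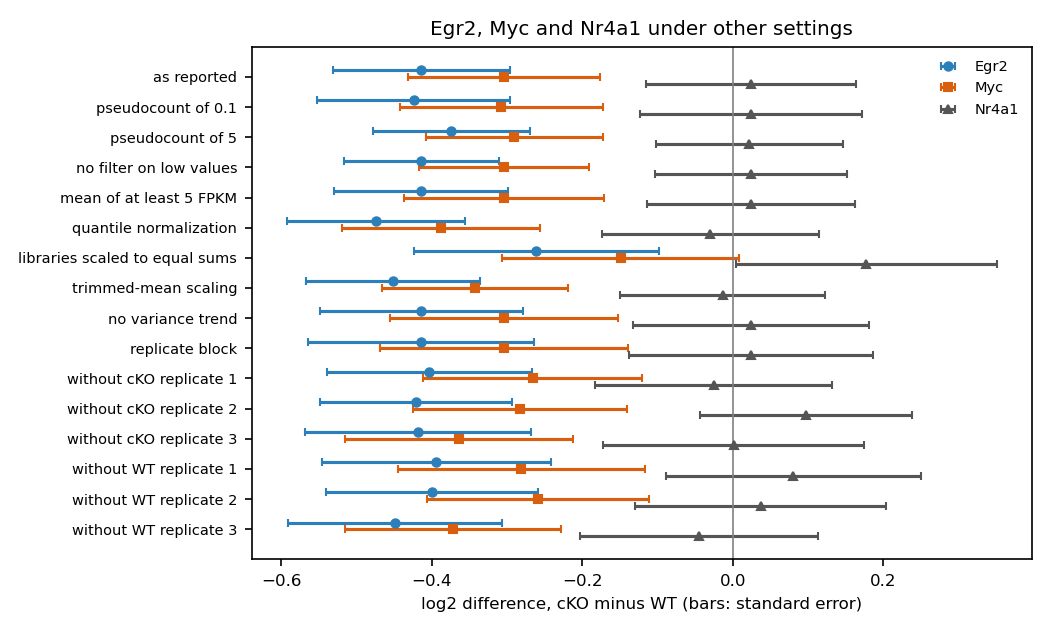
Log2 difference of cKO minus WT for Egr2, Myc and Nr4a1 as reported and under 15 other settings, with bars of 1 standard error. Egr2 stays between -0.47 and -0.26 and Myc between -0.39 and -0.15, both nearest 0 with equal sums, while Nr4a1 lies on either side of 0.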

How the data were processed

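The authors deposited FPKM values for 36811 genes in 6 libraries, in a file whose name points to cuffnorm. Per the labels' protocols, SmartSeq2 libraries from sorted cells were run on an Illumina HiSeq. The submitters' processing notes name FastQC, cutadapt and HISAT2 beside the builds NCBIM37 and mm9. The sources used here do not state annotation, strand setting or filters. Symbols matched 31840 genes. The members and lists were chosen with earlier results of these data known. Genes averaging at least 1 FPKM were tested with limma 3.58.1 (R 4.3.3) on log2(FPKM + 1), using its trended variance and Benjamini-Hochberg adjustment at 0.05, where differences of low genes come out too small. The fragment scale came from 87 single-transcript genes of at least 2000 bases whose values were whole multiples of a step within 0.02. Permutation tests used scipy 1.17.1. Motif searches covered both strands, and the half-site TGACG was added after the sequences were read. The rule for naming took the 10 members, Bach2, Foxp3, up to 4 genes of each list with the smallest p and the 5 closest in profile, of which the most relevant are described. S1pr1, Fos, Nab2, Cblb, Mycn, Mycl, Ncl, Fbl, Bop1, Hspa1a, Hspa1b, some markers and the genes listed for lack of overlap were chosen after their values were seen. A result on 1 further gene of the egress list is not reported here.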

Additional observations from a re-analysis of the deposited data

How the results depend on the processing

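No member passed an adjusted p of 0.05 in any of 15 alternatives (limma), and Egr2, Myc, Egr1 and Nr4a3 kept their direction wherever they were tested. Nr4a3 was not tested with a minimum mean of 5 FPKM. At an unadjusted p under 0.05, Egr2 was found in 14 of the 15, the exception being equal sums, and Myc in 5, with adjusted p from 0.688 to 1 for each. The count of genes past the threshold, 3, was 1 once the replicate block entered the model, and leaving out 1 library gave 5 to 15. With that block Egr2 had an unadjusted p of 0.0446. Deviations of same-numbered libraries correlated at -0.060, -0.18 and -0.017, and those of other pairs at -0.074 to 0.13. No pairing by number was seen, though 3 libraries in a group are too few for this check to decide it. The members' median of 0.06 was -0.025 after quantile normalization and 0.21 with equal sums. After quantile normalization Nr4a1 differed by -0.030, Cd69 by -0.028 and Ier2 by -0.021, and with trimmed-mean scaling Nr4a1 by -0.014. Without 1 library, Nr4a1 ranged from -0.045 to 0.097, Nr4a2 from -0.066 to 1.72, Nr4a3 from 0.36 to 0.79, Cd69 from -0.039 to 0.13, Ier2 from -0.069 to 0.16, Foxp3 from -0.065 to 0.25 and Mxd3 from -0.043 to 0.71. None of these passed on either side. For none of these shifts was the cause tested. Few fragments limit Ier3 and Egr3, and also Nr4a3 in WT 2 and Nr4a2 in its lowest libraries.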
